A study of Mus musculus with 32 samples.

Results

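The genes described here are 10 receptors and mediators that carry growth signals into hepatocytes, Egfr, Erbb3, Met, Il6ra, Il6st, Lifr, Stat3, Fgfr4, Klb and Insr. They were chosen by symbol for their place in the EGF, HGF, interleukin, FGF and insulin signals of the regenerating liver, and they are 10 of the 55421 genes of the deposited count table. The choice was made with earlier results of these data known, as was that of the gene lists below. Counts of called genes beside the share over all genes are therefore descriptions. Liver RNA came from 16 mice in 4 groups of 4, which were hepatectomised animals with a Mettl14 knockout (KO) aged 72 to 73 days, hepatectomised flox controls aged 72 to 73 days, sham-operated KO animals aged 72 to 73 days and sham-operated flox controls aged 71 to 77 days. Each animal gave an IP library, made from fragmented total RNA pulled down with an antibody against N6-methyladenosine (m6A), and an input library, which measures RNA level. The sources used here do not give the Cre driver, the sex, the strain, the cells in which Mettl14 was deleted or the time from surgery to sampling. Litters are also not given, so p-values measure the spread between these animals.

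As background, when part of the liver is removed the remaining hepatocytes re-enter the cell cycle under several signals at once. HGF acts through MET and the EGF family through EGFR, both receptor tyrosine kinases that switch on the RAS-ERK and PI3K-AKT cascades. Interleukin-6 binds IL6RA, which joins gp130 (the product of Il6st) to activate JAK kinases and STAT3. FGFR4 with its partner beta-Klotho (Klb) receives FGF15 from the gut and restrains bile acid synthesis, and the insulin receptor supports growth and sets glucose and lipid metabolism. METTL14 works with METTL3 to write m6A on mRNA, a mark that is often found in long internal exons and near stop codons.

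The 10 genes differ in the amount of exon on which reads can fall. In the deposited annotation, whose genome build is unstated and whose positions matched RefSeq genes of GRCm38.p6, Egfr spans 16752203 to 16918158 on the plus strand of chromosome 11, with 11326 bases of exon in 30 blocks, the longest and last of 6665 bases. Il6ra lies at 89864059 to 89913196 on the minus strand of chromosome 3, with 8642 bases of exon of which 7328 are in the last block. Il6st lies at 112464070 to 112510086 on the plus strand of chromosome 13, with 11099 bases of exon and a last block of 6382 bases. Fgfr4 has the least exon, 3542 bases, and Insr the most, 13746 bases. The promoters of the 3 most abundant members in IP libraries are shown. Of these genes, Egfr and Il6ra had lower IP levels in hepatectomised KO than in hepatectomised flox livers, while neither was called in input. Il6st is given as their contrast within the same signals. The promoters are the 250 bases before the RefSeq start on GRCm38.p6, read 5′ to 3′ on the gene's own strand, with capitals marking GGGCGG or its complement CCGCCC, the core of the GC box.
Egfr (chr11:16751953-16752202, plus strand): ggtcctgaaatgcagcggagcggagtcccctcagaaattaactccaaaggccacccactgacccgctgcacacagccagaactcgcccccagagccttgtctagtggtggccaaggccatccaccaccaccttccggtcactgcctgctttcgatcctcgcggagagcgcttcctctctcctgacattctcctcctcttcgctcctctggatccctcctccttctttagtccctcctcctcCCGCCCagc
Il6ra (chr3:89913197-89913446, minus strand): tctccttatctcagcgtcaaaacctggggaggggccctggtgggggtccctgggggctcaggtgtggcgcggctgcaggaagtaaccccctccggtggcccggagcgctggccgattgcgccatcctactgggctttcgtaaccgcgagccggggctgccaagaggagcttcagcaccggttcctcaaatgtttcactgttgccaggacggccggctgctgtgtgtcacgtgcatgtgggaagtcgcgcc
Il6st (chr13:112463820-112464069, plus strand): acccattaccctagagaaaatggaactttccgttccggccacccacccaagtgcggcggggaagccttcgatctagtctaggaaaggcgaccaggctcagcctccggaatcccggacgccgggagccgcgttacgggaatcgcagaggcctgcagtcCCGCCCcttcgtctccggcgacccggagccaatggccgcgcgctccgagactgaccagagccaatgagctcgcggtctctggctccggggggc

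RefSeq promoters were found for 8 of the 10 members, with 2 windows for Lifr. Both strands of each window were searched for 5 motifs. The Egfr window held 1 GC box and had a GC content of 60.8%, the Il6ra window held none and had 65.2%, and the Il6st window held 1 and had 66.0%, against a median of 52.4% over all 32851 promoters, of which 32.7% held a GC box. CACGTG, the E-box core, occurred once in the Il6ra window and once in that of Met, against 6.02% of all promoters, and in neither the Egfr nor the Il6st window. TTCCNGGAA, the core of a STAT site, was in none of the members' windows and in 0.913% of all promoters, and TATAAA was in none and in 12.4%. CCAAT occurred 2 times in the Il6st window and in 33.9% of all promoters. These matches are descriptions of letters in a window and not of factor binding.

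Before the results, 3 features of the libraries matter for these genes. IP libraries held 7133766 to 24297854 counts and 6676 to 16846 genes with at least 10 counts, and input libraries held 8177784 to 12533931 counts and 4176 to 9354 such genes, and among IP libraries hepatectomised KO replicate 4 had both the lowest total and the fewest genes. Input libraries of hepatectomised KO animals held 5979 to 8278 such genes and those of hepatectomised flox animals 4462 to 4950, without overlap. The part of this difference in the ratios of IP to input was not tested. All 9 hepatocyte markers were present in each group, with summed levels of 24401 to 69774 CPM in IP libraries. Mettl14 was at 0 in 16 of 16 input libraries and at 0 in 5 of 8 KO and 3 of 8 flox IP libraries, with at most 3.08 CPM in a KO library and 8.14 CPM in a flox library, so its level could not check the genotype labels. Levels are given in CPM, the usual count scaled by the library total.

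Averaged over all 16 animals, Egfr was the most abundant of the 10 transcripts in both kinds of library once levels were set per kilobase of exon. In IP libraries it averaged 174.4 ± 92.3 CPM per kb (SD, n = 16), followed by Il6st at 55.7, Il6ra at 40.1, Met at 28.8, Lifr at 27.6, Klb at 24.3, Erbb3 at 23.5, Insr at 17.8, Stat3 at 10.1 and Fgfr4 at 4.50 CPM per kb. In input libraries Egfr averaged 216 ± 56.2 CPM per kb (SD, n = 16), followed by Il6ra at 42.4 and Il6st at 39.8, and Fgfr4 was again last at 2.43 CPM per kb. The order is firm only at its top and in input. Egfr stood above Il6ra in 16 of 16 input libraries without overlap of their ranges, whereas every neighbouring pair in the IP order overlapped, Egfr above Il6st in 13 of 16 libraries and Met above Lifr in 9 of 16. The 3 libraries with Il6st above Egfr were all of hepatectomised KO livers, where Il6st averaged 79.1 and Egfr 68.9 CPM per kb.

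**Figure D1:**
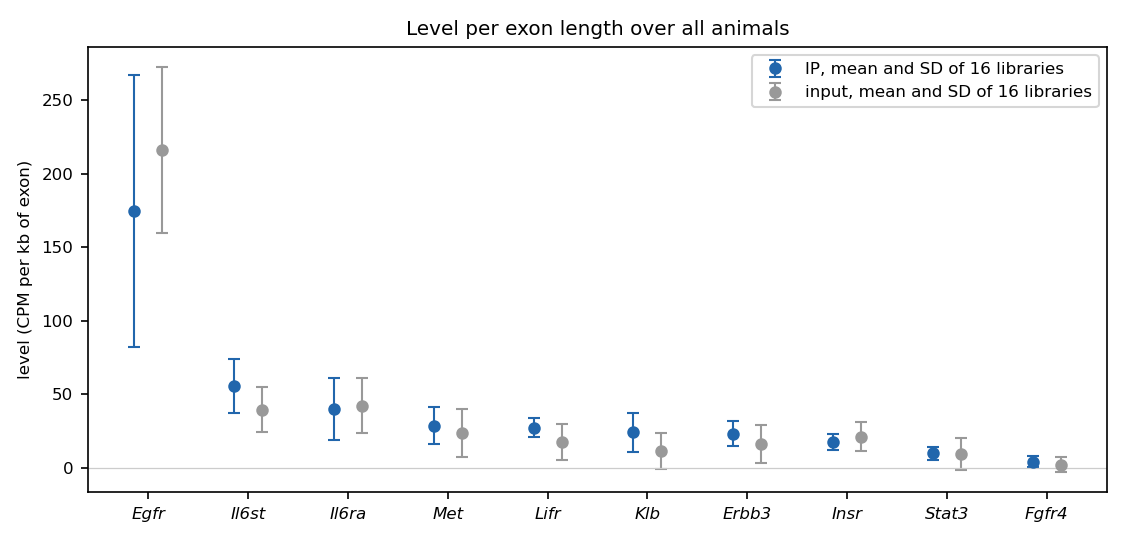
Level per kilobase of exon (y axis, CPM per kb) of the 10 genes in the IP libraries (blue) and input libraries (grey), as the mean and SD of 16 libraries each. The mean of Egfr over all groups stands above those of the other 9 genes in both kinds of library, at 174.4 CPM per kb in IP and 216 in input, and Fgfr4 is the lowest in both.

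Input values of most members scattered widely between animals of 1 group, which limits what the input can show. The median within-group coefficient of variation of Egfr was 26.3% in IP and 26.3% in input libraries. For the others it was larger in input, with 18.3% in IP and 62.0% in input for Lifr, 26.4% and 78.7% for Erbb3, 36.5% and 73.4% for Met, 39.1% and 96.0% for Stat3, and 49.5% and 121% for Klb. Fgfr4 was at 0 in 10 of 16 input libraries, Klb in 5, Erbb3 in 2 and Stat3 in 1. Libraries at 0 stood in 1 group with libraries of up to 2040 counts for Klb, 2856 for Erbb3 and 4485 for Stat3, so an input 0 of these genes is not read as a low level. A library at 0 allows up to 3 counts, a limit that covers counting error only because PCR copies were not marked by molecular identifiers. Over the 16 animals input levels ranged from 30.7 to 436 CPM for Met, from 0.253 to 456 CPM for Lifr, from 54.3 to 494 CPM for Insr and from 0 to 399 CPM for Stat3. Egfr is therefore the member for which input and IP levels can be compared animal by animal.

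**Figure D2:**
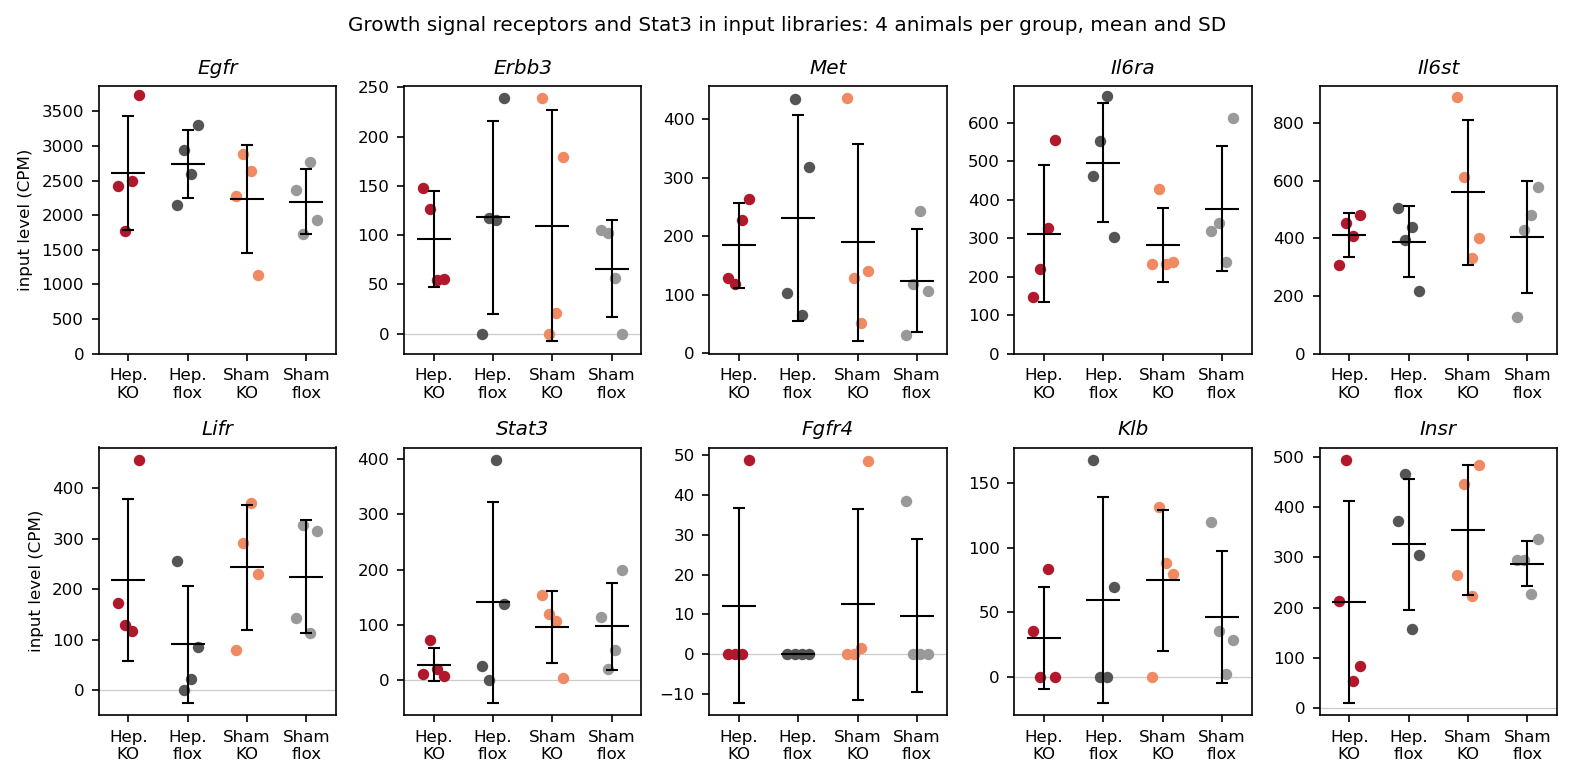
Input levels (y axis, CPM) of the 10 genes in the 4 animals of each group, with the mean and SD as bars, from left to right hepatectomised KO, hepatectomised flox, sham KO and sham flox. The groups overlap for all 10 genes, and several genes have libraries at or near 0, as Fgfr4 in all 4 hepatectomised flox animals.

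The first comparison asks whether the signal of these transcripts in the m6A pull-down differs between KO and flox livers. Egfr and Il6ra had lower IP levels in KO than in flox livers after hepatectomy, at 0.255 and 0.282 times the flox mean, and no member was called higher. These are 2 of 10 members called lower (edgeR's quasi-likelihood test, adjusted p-value under 0.05 over 14024 genes), against 1.13% of all genes called lower in that comparison. All genes include many of lower level than most members. With a filter at a mean of 50 CPM, 211 genes were called lower, against 159 in the main fit, so the share among abundant genes was larger. It is not given here, and the same limit applies to the other shares over all genes. Over the 10 members 8 log2 changes were negative and their median was -1.01, beside a median of 0.01 over all genes. Averaged over both surgeries the same 2 genes were lower, against 0.963% of all genes. All 10 members passed the filter on low counts in each fit.

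**Figure D3:**
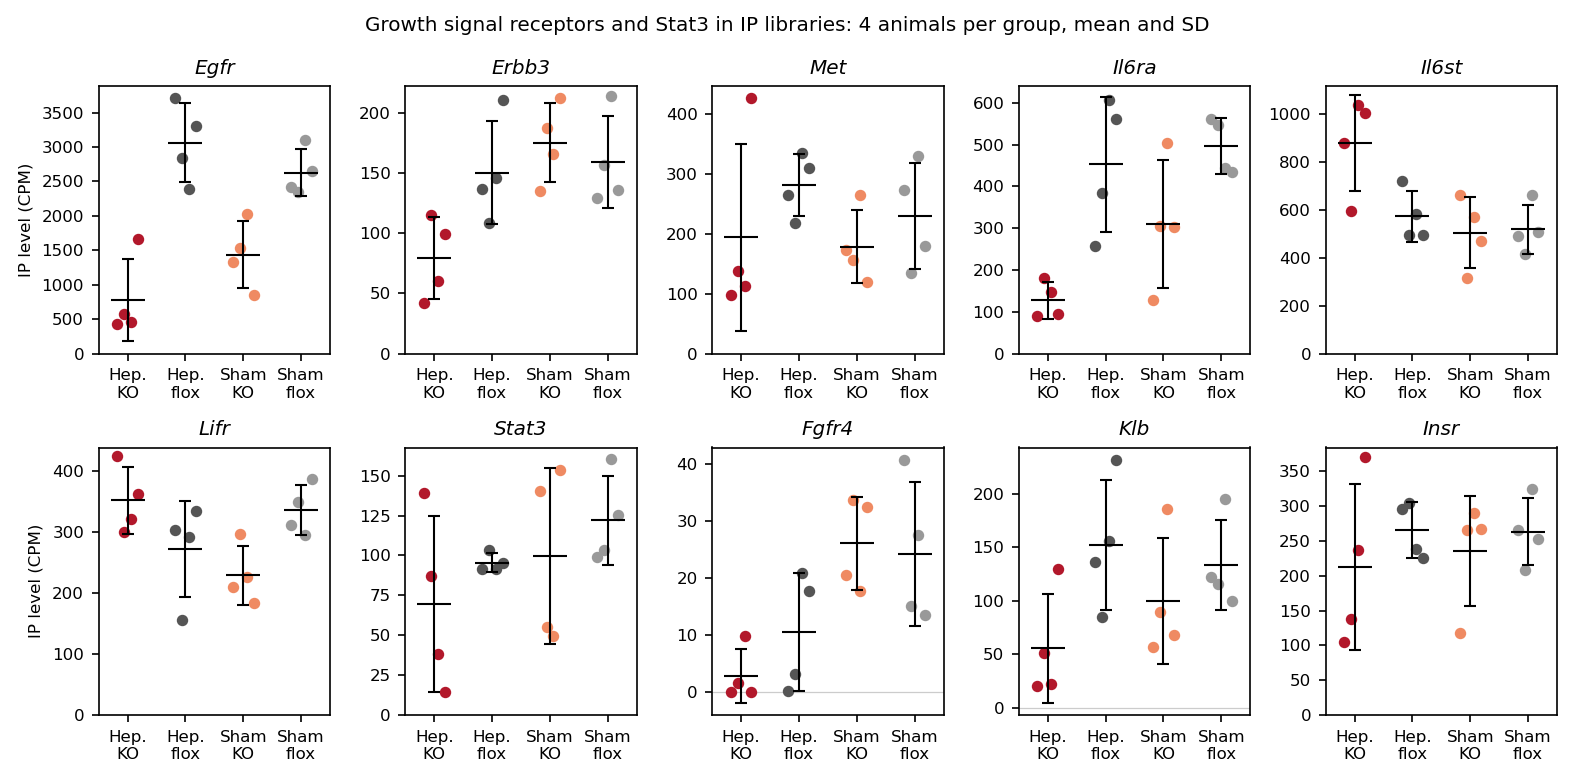
IP levels (y axis, CPM) of the 10 genes in the 4 animals of each group, with the mean and SD as bars, from left to right hepatectomised KO, hepatectomised flox, sham KO and sham flox. Egfr and Il6ra of hepatectomised KO animals lie below all 4 hepatectomised flox animals, and replicate 4 of the hepatectomised KO group, the rightmost red point, stands above the other 3 for Egfr, Met and Klb.

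Egfr encodes the receptor for EGF, TGF-alpha and amphiregulin. Its IP level was 425, 579, 451 and 1664 CPM in hepatectomised KO animals, against 3709.6, 2840.5, 2388 and 3303 CPM in hepatectomised flox animals. In sham animals it was 1325, 1534, 2023 and 852 CPM in KO, against 2420.5, 2351, 3096 and 2647 CPM in flox. Every KO library lay below every flox library of the same surgery, and the 3 lowest values of all 16 were in hepatectomised KO animals. The log2 difference between KO and flox was -2.25 (SE 0.39, adjusted p = 0.00175) after hepatectomy and -0.97 (SE 0.38, adjusted p = 0.705, unadjusted p = 0.0161) after sham surgery, where 0 of 10 members were called by edgeR or DESeq2, 2 had an unadjusted p under 0.05, and 0.0927% of all genes were called. Averaged over both surgeries it was -1.61 (SE 0.27, adjusted p = 0.0012). An exact two-sided permutation test of the log2 CPM of Egfr gave p = 0.0286 for each surgery, the smallest value that 4 against 4 animals allow, and p = 0.000408 for both surgeries together with animals permuted within surgery, the smallest of 4900 permutations. These permutation p-values are unadjusted and belong to 90 such tests over the members and measures. Groups that did not overlap, KO lower, were found for 2 of 10 members after hepatectomy, against 3.64% of all genes, and for 1 of 10, Egfr, after sham surgery, against 1.19%.

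The input level of Egfr did not separate the groups. It was 2425, 1779, 2495 and 3738 CPM in hepatectomised KO animals, against 2142, 2937, 2595 and 3302 CPM in hepatectomised flox animals. After sham surgery it was 2281, 2887, 2633 and 1133 CPM in KO, against 2360.3, 1725, 2775 and 1932 CPM in flox. The ranges of KO and flox overlapped in both surgeries, and the KO mean was 0.951 times the flox mean after hepatectomy and 1.02 times after sham surgery. On totals scaled by TMM factors, as in the fit, the means after hepatectomy were 2823 CPM in KO and 2614 CPM in flox. After sham surgery these means were 2464 and 2008 CPM. The direction after hepatectomy therefore depends on the scaling. The log2 difference was 0.12 (SE 0.23, adjusted p = 1) after hepatectomy and 0.30 (SE 0.23, adjusted p = 1) after sham surgery, and the exact permutation p over both surgeries was 0.74. Egfr had 7293 to 54457 counts per IP library and 9262 to 46846 per input library. Its reads overlap 1 other annotated gene, which held 117 counts over all libraries, against 928331 for Egfr.

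Set against its own input, Egfr was depleted from the IP libraries of hepatectomised KO livers. The log2 ratio of IP to input, with 1 CPM added to both, was -2.51, -1.62, -2.46 and -1.17 in hepatectomised KO animals, against 0.79, -0.05, -0.12 and 0.00 in hepatectomised flox animals. In sham animals it was -0.78, -0.91, -0.38 and -0.41 in KO, against 0.04, 0.45, 0.16 and 0.45 in flox. All 8 KO animals had less Egfr in IP than in input, and no KO ratio reached any flox ratio. In the fit over 32 libraries IP stood below input by a log2 of -2.0 (SE 0.33, adjusted p = 9.78e-05) in hepatectomised KO livers, where 0.335% of all genes were called lower. The difference of that ratio between KO and flox was -2.50 (SE 0.45, adjusted p = 0.000924) after hepatectomy, where 0.705% of all genes were called lower, and -1.31 (SE 0.45, adjusted p = 0.196) after sham surgery, where 0.0209% of all genes were called. Averaged over both surgeries it was -1.90 (SE 0.32, adjusted p = 0.000353), where 4.01% of all genes were called lower. The median gene lay at -0.99 in the hepatectomy comparison, so Egfr lay -1.50 from it, and with upper-quartile factors, under which the median gene lay at -0.14, the value was -1.55 (adjusted p = 0.121) and Egfr was not called. With the animal as a replicate block, the pairing that the labels give, the value was -2.66 but the median gene lay at -2.13, so Egfr lay -0.53 from it. IP and input libraries were made with different kits, from fragmented total RNA and from mRNA, so the part of the ratio that belongs to the antibody cannot be told apart from that of the kits.

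**Figure D4:**
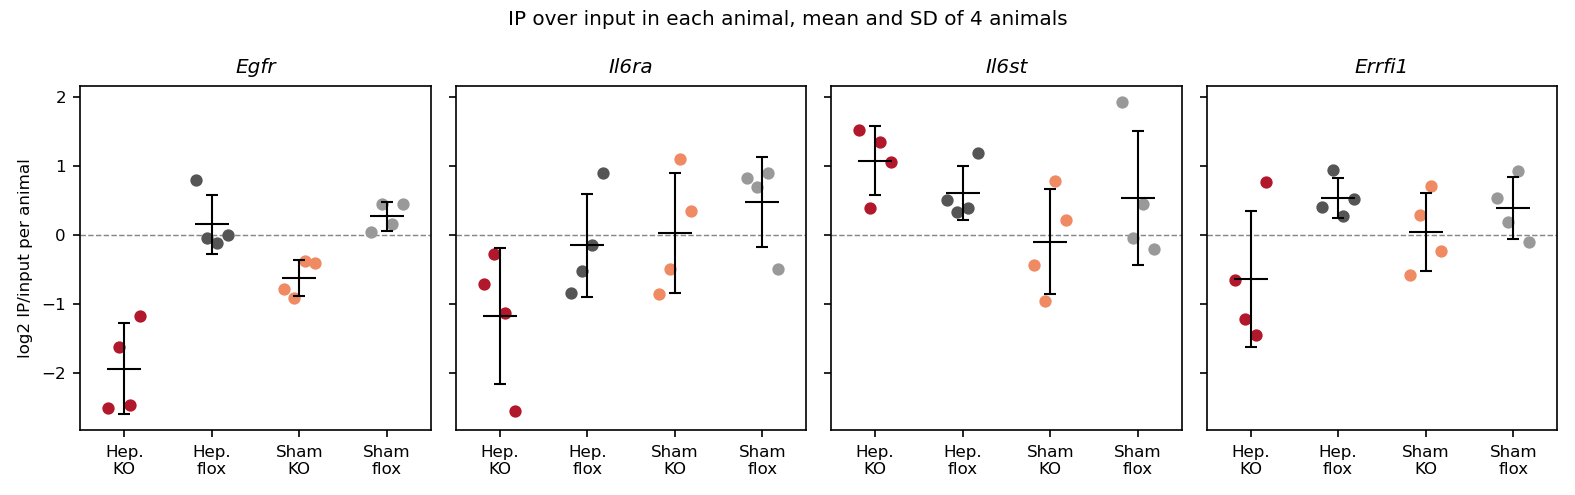
Log2 ratio of IP to input in each animal (y axis), with 1 CPM added to both, for Egfr, Il6ra, Il6st and Errfi1, with the mean and SD of 4 animals as bars and the dashed line at equal IP and input. All KO values of Egfr lie below all flox values of the same surgery, and those of Il6ra and Il6st overlap.

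Il6ra encodes the binding chain of the interleukin-6 receptor. Its IP level was 88.6, 179.6, 148 and 93.6 CPM in hepatectomised KO animals, against 258, 384, 606 and 561 CPM in hepatectomised flox animals. Sham-operated animals had 128, 305, 503 and 304 CPM in KO, against 562, 547, 444 and 434 CPM in flox. After hepatectomy the groups did not overlap, and after sham surgery 1 KO library lay within the flox range. The log2 difference between KO and flox was -2.09 (SE 0.39, adjusted p = 0.00347) after hepatectomy, -0.79 (SE 0.38, adjusted p = 0.857) after sham surgery and -1.44 (SE 0.27, adjusted p = 0.00358) averaged. The exact permutation p was 0.0286 after hepatectomy, 0.0857 after sham surgery and 0.00122 over both.

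In input Il6ra was 146, 218, 326 and 555 CPM in hepatectomised KO animals, against 460.5, 553, 669 and 302 CPM in hepatectomised flox animals. In sham animals it was 232, 428, 234 and 238 CPM in KO, against 317, 338, 239 and 613 CPM in flox. The groups overlapped in both surgeries, with log2 differences of -0.45 (SE 0.63, adjusted p = 1) and -0.13 (SE 0.63, adjusted p = 1). The IP to input ratio of Il6ra differed between KO and flox by a log2 of -1.77 (SE 0.79, adjusted p = 0.165) after hepatectomy, and the exact permutation p of the ratio over both surgeries was 0.0878. Unlike for Egfr, the IP difference of Il6ra was therefore not called relative to input. A gene that overlaps Il6ra held 3262 counts over all libraries, against 155580 for Il6ra.

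Summed levels of some cell type markers also differed between KO and flox in IP libraries. The summed level of 9 hepatocyte markers was 24401 to 44611 CPM in hepatectomised KO IP libraries, against 49725 to 58479 CPM in hepatectomised flox IP libraries. Of the 9 markers 2 were called lower, against 1.13% of all genes. The summed level of 8 stellate cell or fibroblast markers was 493 to 698 CPM against 231 to 269 CPM, that of 10 macrophage markers 626 to 1191 CPM against 379 to 639 CPM and that of 8 endothelial markers 361 to 885 CPM against 299 to 458 CPM, with none of these markers called. The macrophage and endothelial sums overlapped between the groups. No marker of these 4 lists was at 0 throughout either group. In input libraries the hepatocyte sum was 56426 to 68657 CPM in hepatectomised KO and 63691 to 66339 CPM in hepatectomised flox animals, and these ranges overlapped. In sham IP libraries, where Egfr was also lower in every KO animal, the hepatocyte sums overlapped, at 44183 to 69774 CPM in KO and 45121 to 62244 CPM in flox animals. The sums of the other 3 lists did not overlap there and were higher in KO, at 233 to 735 CPM in KO and 146 to 210.4 CPM in flox animals for stellate cells or fibroblasts. They were 494 to 927 CPM in KO and 326 to 423 CPM in flox animals for macrophages, and 489 to 635 CPM in KO and 260.2 to 458 CPM in flox animals for endothelium. The part of these markers in the result was not tested. In IP libraries of bulk liver, fewer cells of a type, less RNA per cell and a changed pull-down cannot be told apart.

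The signalling chain of the interleukin-6 receptor did not follow its binding chain. Il6st, the shared gp130 chain, had IP levels of 878, 595, 1036 and 1004 CPM in hepatectomised KO animals, against 718, 495, 581 and 496 CPM in hepatectomised flox animals. The sham groups had 661, 317, 572 and 469 CPM in KO, against 491, 415, 662 and 506 CPM in flox. The hepatectomised KO group held the 3 highest values of all 16 but overlapped the flox group at replicate 2. The log2 difference was 0.35 (SE 0.30, adjusted p = 0.775) after hepatectomy and -0.18 (SE 0.30, adjusted p = 1) after sham surgery, and the exact permutation p after hepatectomy was 0.0571. Its input levels were 306 to 482 CPM in hepatectomised KO and 216 to 504 CPM in hepatectomised flox animals. Within the 16 IP libraries Il6ra and Il6st had the lowest correlation of the pairs of members, Pearson's r = -0.687 of log2(CPM + 1) over libraries that share depth and group, given as a description.

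Lifr, which pairs with gp130 for leukaemia inhibitory factor, had IP levels of 425, 300.4, 321 and 362 CPM in hepatectomised KO animals, against 304, 156, 292 and 333 CPM in hepatectomised flox animals. In sham animals it had 209, 296, 227 and 184 CPM in KO, against 312, 349, 296 and 387 CPM in flox. The direction of the means was opposite in the surgeries and neither difference was called, with a log2 of 0.12 (SE 0.33, adjusted p = 0.966) after hepatectomy and -0.64 (SE 0.33, adjusted p = 0.941) after sham surgery. Stat3, the transcription factor downstream of gp130, had 139, 87.0, 38.2 and 14.2 CPM in hepatectomised KO IP libraries, against 91.2, 104, 91.7 and 95.4 CPM in hepatectomised flox IP libraries. Its flox values lay close together while its KO values spanned both sides of them, and the log2 difference of -0.71 (SE 0.52, adjusted p = 0.681) was not called. Stat3 in sham IP libraries was 140.3, 54.9, 49.4 and 153.5 CPM in KO, against 99.1, 103.5, 160.3 and 125 CPM in flox, with 2 KO libraries below the flox range and 2 within it. A gene that overlaps Stat3 held 3912 counts over all libraries, against 41938 for Stat3.

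Erbb3, a kinase-impaired partner of EGFR and ERBB2 that binds neuregulins, had IP levels of 41.6, 115, 60.7 and 99.7 CPM in hepatectomised KO animals, against 137, 109, 146 and 211 CPM in hepatectomised flox animals. Sham livers held 136, 187.5, 166 and 213 CPM in KO, against 129.7, 157, 214 and 136 CPM in flox. After hepatectomy 1 KO library lay within the flox range, and the sham groups overlapped broadly. The log2 difference was -1.20 (SE 0.38, adjusted p = 0.136, unadjusted p = 0.00419) after hepatectomy and 0.01 (SE 0.38, adjusted p = 1) after sham surgery.

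Met, the HGF receptor, had IP levels of 98.1, 137, 113 and 428 CPM in hepatectomised KO animals, against 265, 218, 335 and 311 CPM in hepatectomised flox animals. In sham animals it had 174, 156, 264 and 120.3 CPM in KO, against 274, 134, 330.2 and 179 CPM in flox. Klb, the beta-Klotho co-receptor, had 20.3, 51.2, 21.7 and 129 CPM in hepatectomised KO animals, against 137, 84.5, 156 and 232 CPM in hepatectomised flox animals. Its sham levels were 56.4, 89.4, 185.5 and 68.4 CPM in KO, against 123, 116, 195 and 99.9 CPM in flox. For both genes 3 of 4 hepatectomised KO libraries lay below all 4 flox libraries, and replicate 4 did not. The log2 difference was -0.81 (SE 0.43, adjusted p = 0.455) for Met and -1.73 (SE 0.54, adjusted p = 0.126) for Klb. Without hepatectomised KO replicate 4, the IP library of lowest total, it was -1.55 (adjusted p = 0.0185) for Met and -2.57 (adjusted p = 0.00288) for Klb, so that 4 members were called, while Egfr was at -2.94.

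Fgfr4, the FGF15 receptor, was the least abundant member per kb, with 0 to 371 counts in hepatectomy and 223 to 787 counts in sham IP libraries. Its IP level was 0, 1.64, 9.94 and 0 CPM in hepatectomised KO animals, against 0.272, 3.18, 20.9 and 17.8 CPM in hepatectomised flox animals. In the sham groups the level was 20.5, 33.7, 17.8 and 32.4 CPM in KO, against 40.8, 15.1, 27.5 and 13.6 CPM in flox. The KO and flox groups overlapped in both surgeries, and the log2 difference after hepatectomy was -2.09 (SE 1.42, adjusted p = 0.637). In input it was listed at 0 in all 4 hepatectomised flox libraries, so fitted folds against that group depend on the prior count and are not given. Insr, the insulin receptor, had IP levels of 104, 138, 238 and 370.5 CPM in hepatectomised KO animals, against 296, 305, 238 and 226 CPM in hepatectomised flox animals. After sham surgery Insr was 117.5, 265.5, 290.3 and 268 CPM in KO, against 266, 209, 325 and 252.5 CPM in flox. The groups overlapped in both surgeries. Its log2 difference was -0.60 (SE 0.39, adjusted p = 0.604) after hepatectomy and -0.28 (SE 0.39, adjusted p = 1) after sham surgery.

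**Figure D5:**
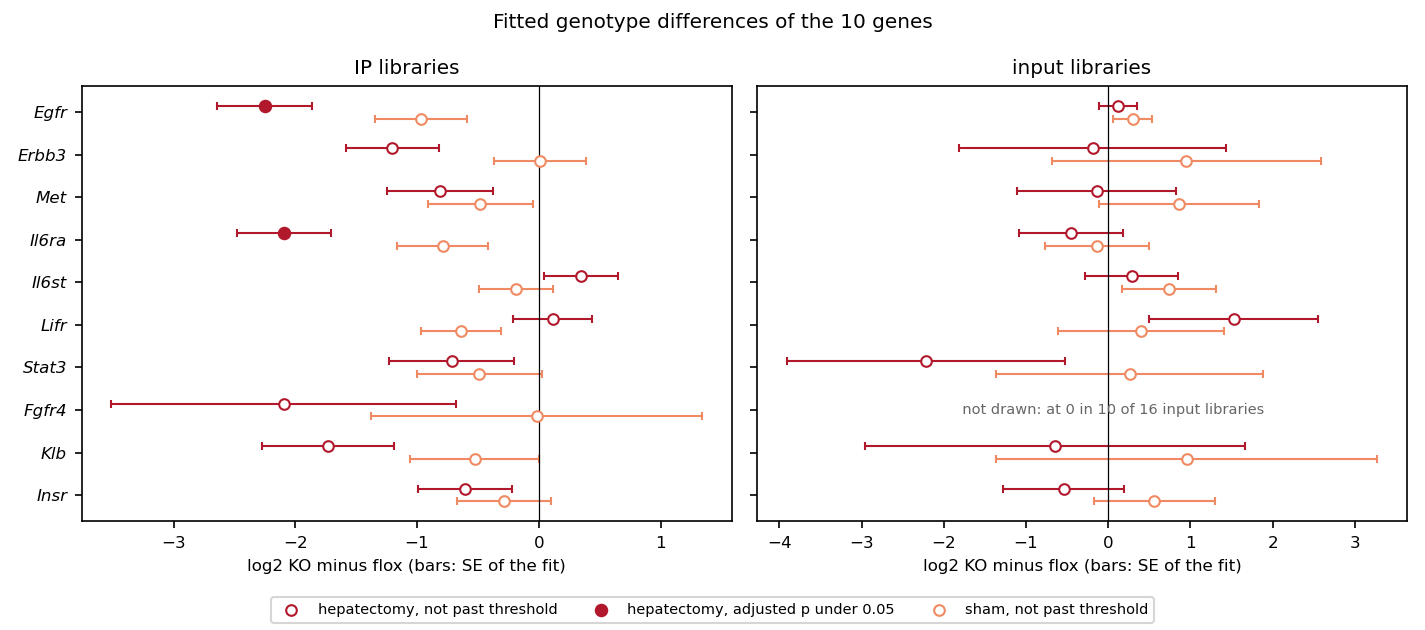
Fitted log2 difference between KO and flox (x axis) of the 10 genes after hepatectomy (red) and sham surgery (orange) in IP libraries (left) and input libraries (right), with the SE as bars and filled points past the adjusted threshold. Egfr at -2.25 and Il6ra at -2.09 after hepatectomy are the filled points, input values have wide errors except for Egfr, and Fgfr4 is not drawn for input because 10 of 16 libraries are at 0.

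In input libraries 0 of the 10 members were called between KO and flox by edgeR, after hepatectomy, after sham surgery or averaged, where 0.0342%, 0.0114% and 0.0912% of all 8775 genes were called in either direction. DESeq2 called 0 members as well, and the number with an unadjusted p under 0.05 was 1, 0 and 1, in both cases Fgfr4. The input errors of the other members were large, with an SE of the log2 difference after hepatectomy of 0.23 for Egfr, 0.57 for Il6st, 0.63 for Il6ra and 0.96 for Met and of 2.31 for Klb.

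Whether the genotype effect was larger after hepatectomy than after sham surgery was tested as the difference between both effects. In IP libraries it was -1.28 (SE 0.53, adjusted p = 0.572, unadjusted p = 0.0226) on the log2 scale for Egfr and -1.30 (SE 0.53, adjusted p = 0.572) for Il6ra, and 0 of 10 members were called by edgeR or by DESeq2, with 3 at an unadjusted p under 0.05, where 0.0285% of all genes were called. Without hepatectomised KO replicate 4 the value for Egfr was -1.97 (adjusted p = 0.0377), so whether Egfr is called here depends on that library. In the ratio of IP to input the difference for Egfr was -1.19 (SE 0.63, adjusted p = 0.408), where 0.0349% of all genes were called.

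The comparison of hepatectomy with sham surgery asks which of these transcripts respond to loss of liver mass. In KO livers, IP libraries of hepatectomised animals had log2 differences from sham of -1.39 for Il6ra (SE 0.38, adjusted p = 0.0977), -1.24 for Erbb3 (SE 0.38, adjusted p = 0.184), -1.01 for Egfr (SE 0.38, adjusted p = 0.333) and 0.73 for Il6st (SE 0.30, adjusted p = 0.382), none past the threshold. The sample values behind these differences are those given above. Between hepatectomised and sham KO animals the groups did not overlap for Erbb3, at 41.6 to 115 against 136 to 213 CPM, nor for Fgfr4, at 0 to 9.94 against 17.8 to 33.7 CPM, both lower, where 4.35% of all genes were lower without overlap. Lifr was higher without overlap, at 300.4 to 425 against 184 to 296 CPM, where 2.12% of all genes were higher without overlap. In all, 0 of 10 members were called in KO (edgeR, with 5 at an unadjusted p under 0.05, and 1, Il6ra, called by DESeq2), where 0.627% of all genes were called by edgeR. Over all genes DESeq2 called 84 higher and 331 lower there. In flox livers 0 of 10 were called by edgeR or DESeq2, with 0 at an unadjusted p under 0.05, where 0.0285% of all genes were called, and the log2 values of Egfr and Il6ra were 0.28 (SE 0.37) and -0.09 (SE 0.37). Averaged over genotypes 0 were called by edgeR or DESeq2, with 4 at an unadjusted p under 0.05, where 0.656% of all genes were called. For the ratio of IP to input, edgeR called 0 members in KO or flox, where 0.0349% and 0.181% of all genes were called, with 1 at an unadjusted p under 0.05 in each, and DESeq2 called 0 in KO and 1, Fgfr4, in flox. Over all genes DESeq2 called 1971 higher and 1378 lower in that flox comparison. The KO comparison shares its hepatectomised libraries with the genotype comparison, so both are not independent. Without hepatectomised KO replicate 4 Egfr was called, at -1.69 (adjusted p = 0.00482), and without sham KO replicate 1 Il6ra was called, at -1.66 (adjusted p = 0.0294).

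In input libraries 0 of 10 members were called between hepatectomy and sham by edgeR or DESeq2, in KO, where 0.0114% of all genes were called, in flox, where 0% were, or averaged, where 0.0228% were. At an unadjusted p under 0.05 there were 0 in KO, 1, Fgfr4, in flox and 0 averaged. Egfr averaged 2609 ± 819 CPM in hepatectomised KO and 2233 ± 775 CPM in sham KO input libraries, and 2744 ± 494 CPM in hepatectomised flox and 2198 ± 467 CPM in sham flox input libraries (SD, n = 4 each). The log2 differences were 0.20 (SE 0.23, adjusted p = 1) and 0.38 (SE 0.23, adjusted p = 0.51).

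Within each of the 4 groups the IP libraries were set against the input libraries of that group in the fit over 32 libraries, without pairing by animal. Only Egfr was called in any group, below input in hepatectomised KO livers as given above. It stood at a log2 of 0.50 (SE 0.32, adjusted p = 0.303) in hepatectomised flox, -0.80 (SE 0.32, adjusted p = 0.173) in sham KO and 0.51 (SE 0.32, adjusted p = 0.315) in sham flox livers. Il6ra stood at -1.58 (SE 0.56, adjusted p = 0.166) in hepatectomised KO and 0.20 (SE 0.55, adjusted p = 0.947) in hepatectomised flox livers. Il6st stood at 0.86 (SE 0.46, adjusted p = 0.301) in hepatectomised KO and 0.92 (SE 0.46, adjusted p = 0.144) in hepatectomised flox livers. In the other groups 0 of 10 members were called by edgeR, where 1.21%, 0.0209% and 0.279% of all genes were called, with 2, 1 and 0 at an unadjusted p under 0.05 in hepatectomised flox, sham KO and sham flox livers, and DESeq2 called 1, Fgfr4, in hepatectomised flox livers. Over all genes DESeq2 called 4043 above input and 83 below it in that group. The median member lay at -0.16 in hepatectomised KO and 0.61 in hepatectomised flox livers, and the median gene at 0.30 and 1.28.

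The wider pathway was described with 9 lists of 123 genes. Of these 120 had a match in the table, 104 were tested in IP and 90 in input libraries, and 12 were called in some comparison. None of the 29 adaptors and kinases tested in IP libraries was called between KO and flox after hepatectomy (edgeR, with 2 at an unadjusted p under 0.05, and 1 by DESeq2), and their median log2 change was -0.23 beside 0.01 for all genes. Pik3r1, the regulatory subunit of PI3-kinase, and Irs2, the insulin receptor substrate of liver, were the most abundant of them, at 364 and 282 CPM over the 16 IP libraries. Of the 9 other receptors tested 0 were called (edgeR, 0 at an unadjusted p under 0.05 and 0 by DESeq2), the most abundant being Fgfr1 and Osmr, the oncostatin M receptor chain, at 22.3 and 22.1 CPM. Of the 11 ligands tested 1 was called lower, against 1.13% of all genes. Fgf1, an FGF that binds all FGF receptors, fell, with 64.1, 70.0, 24.5 and 64.8 CPM in hepatectomised KO, against 112, 126, 189.7 and 190.5 CPM in hepatectomised flox IP libraries (log2 -1.73, SE 0.42, adjusted p = 0.0291). Igf1, the main growth factor ligand by level, averaged 386 CPM and was not called, and Il6 itself was at 0 in all libraries. Of the 8 ligand-activating proteases and inhibitors tested 0 were called between genotypes after hepatectomy (edgeR, 2 at an unadjusted p under 0.05, 0 by DESeq2). Plg, plasminogen, fell in hepatectomised against sham KO IP libraries at a log2 of -1.36 (SE 0.33, adjusted p = 0.0486), where 0.627% of all genes were called.

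Of the 22 inhibitors tested 1 was called lower between genotypes after hepatectomy, against 1.13% of all genes. It was Errfi1, which encodes MIG6, a feedback inhibitor that binds the EGFR kinase. Its IP level was 1426, 1479, 829 and 3506 CPM in hepatectomised KO animals, against 4266, 3293, 3912 and 3845 CPM in hepatectomised flox animals. Replicate 4 of the KO group lay within the flox range, and the log2 difference was -1.35 (SE 0.35, adjusted p = 0.0482). In input Errfi1 averaged 2499.5 ± 624 CPM in hepatectomised KO and 2715 ± 715 CPM in hepatectomised flox animals (SD, n = 4 each). Its IP to input ratio differed by a log2 of -1.55 (SE 0.37, adjusted p = 0.0305), where 0.705% of all genes were called lower. The median gene lay at -0.99, and DESeq2 did not make this call. Dusp6, an ERK phosphatase and the next most abundant inhibitor, averaged 189 CPM and was not called.

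Targets of the signals were mixed. The lists do not separate genes that a signal raises from genes that it lowers. A lower target is therefore not read as a weaker signal. Of the 10 targets of STAT3 tested in IP libraries 3 were called lower in hepatectomised KO against hepatectomised flox livers, against 1.13% of all genes, namely Fgb, the fibrinogen beta chain, at a log2 of -1.53 (SE 0.32, adjusted p = 0.00981), Hp, haptoglobin, at -2.15 (SE 0.46, adjusted p = 0.0122), and Steap4, a metalloreductase, at -2.26 (SE 0.47, adjusted p = 0.00962). Fgb is also on the hepatocyte marker list above. In input edgeR called none of these 3 between genotypes after hepatectomy. Their input means were 9698 CPM in hepatectomised KO and 11453 CPM in hepatectomised flox livers for Fgb. They were 11304 and 12825 CPM for Hp, and 1752 and 2345 CPM for Steap4. Lcn2, an acute phase lipocalin, rose after hepatectomy averaged over genotypes, at 2.16 (SE 0.46, adjusted p = 0.0308), where 0.656% of all genes were called. Of the 8 targets of ERK tested 0 were called between genotypes after hepatectomy (edgeR, 0 at an unadjusted p under 0.05 and 0 by DESeq2). Ccnd1, cyclin D1, rose in KO averaged over surgeries, at 2.90 (SE 0.63, adjusted p = 0.0134), where 68 of 14024 genes were called higher. It had 108, 163, 34.4 and 262 CPM in hepatectomised KO against 46.6, 30.5, 28.3 and 43.4 CPM in hepatectomised flox IP libraries. In sham IP libraries it had 66.8, 45.6, 32.9 and 159 CPM in KO, against 0, 0.919, 1.77 and 12.1 CPM in flox. In input Ccnd1 averaged 63.2 CPM in hepatectomised KO and 8.58 CPM in hepatectomised flox livers. It averaged 41.3 CPM in sham KO and 0.101 CPM in sham flox input libraries. EdgeR called it in neither input nor the ratio of IP to input. DESeq2 called it in input averaged over surgeries, where it called 1240 genes higher and 130 lower. Egr1, the immediate early factor, was the most abundant ERK target at 553 CPM.

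Of the 3 targets of FGFR4 1 was called lower, against 1.13% of all genes. Cyp8b1, the sterol 12-alpha-hydroxylase of bile acid synthesis, fell in hepatectomised KO IP libraries to 0.0582, 3.74, 0 and 0 CPM, against 284, 266, 189 and 314 CPM in hepatectomised flox IP libraries. Sham KO libraries held 117, 282, 419 and 140.5 CPM and sham flox libraries 299.6, 389, 256 and 105 CPM, so the loss was seen in 1 of the 4 groups. The adjusted p was 7.34e-05, and the fitted fold depends on the prior count because 2 libraries are at 0. In input it held 72.2 to 236 CPM in hepatectomised KO and 218 to 442 CPM in hepatectomised flox livers, which overlap and were not called. Cyp7a1, the rate-limiting enzyme of the same pathway, averaged 142 CPM in IP and was not called. Of the 8 targets of insulin tested in IP libraries 2 were called lower between the genotypes after hepatectomy, against 1.13% of all genes, both enzymes of glucose production, Pck1 at a log2 of -1.59 (SE 0.38, adjusted p = 0.0249) and G6pc at -2.36 (SE 0.41, adjusted p = 0.00173). In input edgeR called neither. Pck1 averaged 1587 CPM there in hepatectomised KO and 1865 CPM in hepatectomised flox livers, and G6pc averaged 285 and 231 CPM. Scd1, stearoyl-CoA desaturase, fell in hepatectomised against sham KO livers in both kinds of library. Its log2 was -3.03 (SE 0.52, adjusted p = 0.0037) in IP, where 0.627% of all genes were called, and -1.61 (SE 0.28, adjusted p = 0.00274) in input, where 0.0114% were. Over all input comparisons Scd1 was the 1 pathway gene that edgeR called, where DESeq2 called 14.

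The genes whose IP level most resembled that of the 3 most abundant members over the 16 IP libraries were found by Pearson's correlation of log2(CPM + 1) among 5379 genes of at least 20 CPM. For Egfr these were Saa4, a constitutive serum amyloid A, with r = 0.947, and Errfi1 with r = 0.936. Without the 2 libraries farthest from the median of Egfr r was 0.901 and 0.918. For Il6ra they were the lipid droplet genes Plin4 and G0s2, with r = 0.896 and 0.893, and for Il6st they were Ap1ar and Rps6, with r = 0.868 and 0.847. Without the 2 libraries farthest from the median of the member, r fell to 0.805 and 0.799 for Il6ra. For Il6st it fell to 0.796 and 0.723. Among the members Egfr and Klb had the highest correlation, r = 0.891. The libraries share group, total and kit, so these values describe a shared pattern over libraries.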

How the data were processed

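Counts were compared for 32 libraries of 16 mice, 4 animals in each of 4 groups. Per the submitters' processing notes, reads were processed with fastp and STAR, with versions, counting program and strand setting not stated. The authors deposited estimated counts (expected counts) per gene, not scaled between libraries. Of these 1.33% to 8.22% per library are not whole, so reads of near-identical genes may be split, and they were rounded. Per the labels, IP libraries used the NEBNext Ultra kit and input libraries the TruSeq Stranded mRNA kit. Genes were named by position against RefSeq genes (34382 of 55421 matched, overlap over union of at least 0.5).

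Group means were modelled in R 4.3.3 by edgeR 4.0.16, with TMM factors (filterByExpr at a minimum count of 10, quasi-likelihood F-tests, Benjamini-Hochberg adjustment, threshold 0.05) over 16 IP libraries (14024 genes), 16 input libraries (8775 genes) and all 32 (14332 genes), with 1 coefficient per group. DESeq2 1.42.0 was the other tool, and the fits were tested on simulated data. Single genes were also compared by exact two-sided permutation of log2(CPM + 1), which is the scale of per-animal ratios.

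The members and the gene lists were chosen with earlier results of these data known. The named genes are the members, Mettl14, of each list the called genes and the 2 of highest mean IP level, and the 2 genes most like each of the 3 most abundant members. The labels pair both libraries of an animal, and their deviations from group means correlated at -0.03 to 0.10 over 2209 genes, which are not independent replicates. Alternatives were other factors, filters and tools, a block for animal or replicate number, and omission of single animals, of the 2 animals aged 77 days and, added after the data were seen, of the IP libraries of lowest and highest total.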

Additional observations from a re-analysis of the deposited data

Results flagged for a closer look

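In groups of 4 animals, a library was marked where its gap to the nearest of the others was a larger share of the group's range than Dixon's 95% critical value allows, and 9 of 79 groups of member levels were so marked, where chance marks about 1 in 20. Hepatectomised KO replicate 4, the IP library of lowest total, stood above the other 3 for Met at 427.8 CPM and for Egfr at 1664.2 CPM. Both genes were called lower in hepatectomised KO than in hepatectomised flox IP libraries without it. In IP libraries Fgfr4 also stood apart at 9.9 CPM in hepatectomised KO replicate 3, against at most 1.64 CPM in the others, and Insr was low at 117.5 CPM in sham KO replicate 1.

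In input libraries single animals held nearly all of a group's Fgfr4, at 48.8 CPM in hepatectomised KO replicate 4, 48.5 CPM in sham KO replicate 4 and 38.4 CPM in sham flox replicate 1. Il6ra was high at 427.5 CPM in sham KO replicate 2, and Lifr at 456.0 CPM in hepatectomised KO replicate 4. The cause of these values was not tested.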

How the results depend on the processing

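Egfr and Il6ra stayed lower in hepatectomised KO than in hepatectomised flox IP libraries, and called, under all alternatives run. Relative to the median gene, which library totals alone moved to 0.28, their log2 differences were -2.99 to -2.12 for Egfr and -2.11 to -1.91 for Il6ra over 10 settings. For the ratio of IP to input, Egfr lay -2.15 to -0.53 from the median gene, and with upper-quartile factors 0 members were called after hepatectomy. With single animals left out, the members called in IP libraries numbered 2 to 4 between genotypes after hepatectomy and averaged, 0 to 1 for hepatectomy against sham in KO and 0 to 1 for the interaction, and in the ratio 1 to 2 for genotype averaged, where the second was Fgfr4 without sham flox replicate 1. Without the IP libraries of lowest and highest total, IP calls were 4 between genotypes after hepatectomy (with Klb and Met), 4 averaged, 2 for hepatectomy against sham in KO (Egfr and Klb), 1 averaged and 1 for the interaction, and 1 in the ratio for hepatectomy against sham in KO, all 3 of them Egfr. With no filter on low counts 1 member was called between genotypes after sham surgery (Egfr) and 2 between surgeries in KO (Egfr and Il6ra), with a filter at 50 CPM 2 (Erbb3 and Il6ra) and with DESeq2 1. Over all genes, 40 were called higher and 25 lower between genotypes after sham surgery with no filter. Between surgeries in KO the numbers were 63 and 214 with no filter, 73 and 155 at 50 CPM and 84 and 331 with DESeq2. In the ratio DESeq2 called 2 members (Egfr and Fgfr4) between genotypes after hepatectomy and 2 averaged, and 1 (Fgfr4) in hepatectomised flox against input, between surgeries in flox and for the interaction. Of 14332 genes it called 613 higher and 2573 lower between genotypes after hepatectomy, and 605 and 2773 averaged. The 2 of 10 members called there are near the share over all genes. It called 4043 higher and 83 lower in hepatectomised flox against input, 1971 and 1378 between surgeries in flox, and 1266 and 1890 for the interaction. DESeq2 called 14, 22 and 40 pathway genes in input, IP and ratio, against 1, 12 and 8 by edgeR. Each number counts genes called in any comparison of that fit, for which no share over all genes is given. The replicate block, with animal or replicate number, changed no count of members. Egfr had a log2 of -2.35 (adjusted p = 0.00218) in IP with the number as block, and in the ratio -2.66 with the animal as block, where the median gene lay at -2.13 and Egfr -0.53 from it.

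Over all genes, 48 were called higher and 159 lower in IP between genotypes after hepatectomy, 76 and 95 with library totals alone, 364 and 444 with DESeq2, 171 and 211 at 50 CPM and 133 and 290 with no filter, and 1 and 101 in the ratio, 1 and 8 with upper-quartile factors. Averaged over surgeries it was 68 and 135 in IP, 122 and 89 with library totals. The mean IP level of Stat3 in hepatectomised flox livers was 104.7 CPM on TMM-scaled totals, against 95.5 CPM. Uneven input counts, with libraries at 0 beside others with many counts in 1 group, limited Fgfr4, Klb, Erbb3 and Stat3, and the cause was not tested.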
